A study of Mus musculus with 6 samples.

Results

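Muc1, Muc5ac, Muc6, Tff2 and Agr2, genes of gastrointestinal mucus, were followed in the pancreas of adult mice after deletion of Ptf1a. They were taken by name from a list of 9 genes for mucins, trefoil factors and the mucin chaperone Agr2, a list drawn up with earlier results of these data known. Of these 9, the 5 genes above are among the 10245 genes of the deposited table, and Muc4, Muc13, Muc20 and Tff3 are not. The highest library of each gene in the table is at 27.6 normalized counts or above, so the list of genes was already limited to those with some signal.

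Mucins are large proteins densely covered with sugar chains that are attached to serine and threonine. Muc5ac and Muc6 are secreted and form gels in the stomach, where Muc5ac is made by surface mucous cells and Muc6 by the neck and gland mucous cells below them. Muc1 instead spans the apical membrane of many simple epithelia, pancreatic ducts and acini included. Trefoil factors are small secreted proteins held together by disulfide bonds, and Tff2 is stored together with Muc6 in gastric mucous neck cells. Agr2 belongs to the protein disulfide isomerases of the endoplasmic reticulum and assists the folding of secreted mucins. In the pancreas, Muc5ac, Muc6, Tff2 and Agr2 are known from metaplasia and from pancreatic intraepithelial neoplasia.

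RNA was taken from whole pancreas of 3 control mice, labelled Ptf1a(CreER/+) and 4 months old, and of 3 Ptf1a cKO mice, labelled Ptf1a(CreER/fl) and 5 months old. In both groups 1 Ptf1a allele is replaced by a tamoxifen-inducible Cre, so the control mice are heterozygous for Ptf1a as well, and recombination takes place in cells that use the Ptf1a locus, which in the adult are the acinar cells. All 6 mice received tamoxifen at 0.25 mg per g body weight by gavage on 3 consecutive days and were killed on day 14, and each group held 1 male and 2 females. Age follows genotype, so the effects of the 2 cannot be told apart. Deletion is mosaic, because not every acinar cell recombines. Since whole tissue was measured, fewer cells of a type and less RNA per cell cannot be told apart either.

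The values are normalized read counts that the authors placed on a common scale, and the median gene of a library lay between 125 and 128.5. The sum over genes was 17949889 to 21175836 in control and 5527104 to 8981107 in Ptf1a cKO, sums that follow from the scaling and are no sequencing depths. Ptf1a checked the labels, with 566, 601 and 652 normalized counts in the control and 19.8, 70.1 and 10.2 in the Ptf1a cKO libraries. Acinar cells were represented in every library, with all 12 of their markers in the table. By the test given below 10 of them were lower in Ptf1a cKO, as were 16.8% of all genes. Their summed level was 9489909 to 11909094 normalized counts in control and 1206535 to 3707467 in Ptf1a cKO. Ptf1a cKO replicate 3 stood apart from both other Ptf1a cKO libraries in a leukocyte gene, with 419 normalized counts of Ptprc (CD45) against 86.6 and 57.0.

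Muc5ac, Muc1 and Agr2 were higher in Ptf1a cKO pancreata, and Tff2 and Muc6 did not pass the threshold. The 5 genes also differed widely in level. Groups were compared by limma on log2 values, two-sided, with p-values adjusted over all 10245 genes by the method of Benjamini and Hochberg, and genes with an adjusted p-value below 0.05 are named as called. In all, 33.9% of genes were called, and in 50.8% the groups did not overlap in either direction. Higher values in Ptf1a cKO were called for 3 of the 5 genes and lower values for 0, while over all genes 17.1% were called higher and 16.8% lower. Muc5ac, Muc6 and Agr2 reached 27.6 normalized counts, the lowest maximum of any gene in the table, only in Ptf1a cKO libraries. Their place in the table rests on these libraries, so lower values could not have been called for them. The direction of the calls is therefore no free outcome for Muc5ac and Agr2. For Muc1, Muc5ac and Agr2 every Ptf1a cKO library lay above every control library, which was so for 26.5% of all genes. A fold change is the difference of log2(value + pseudocount), with a pseudocount of 0.25 that equals 3.41 normalized counts, which makes the change of low genes look smaller than it is. With 3 against 3 libraries the smallest two-sided p of an exact permutation test is 0.10, which Muc1, Muc5ac and Agr2 reached.

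**Figure D1:**
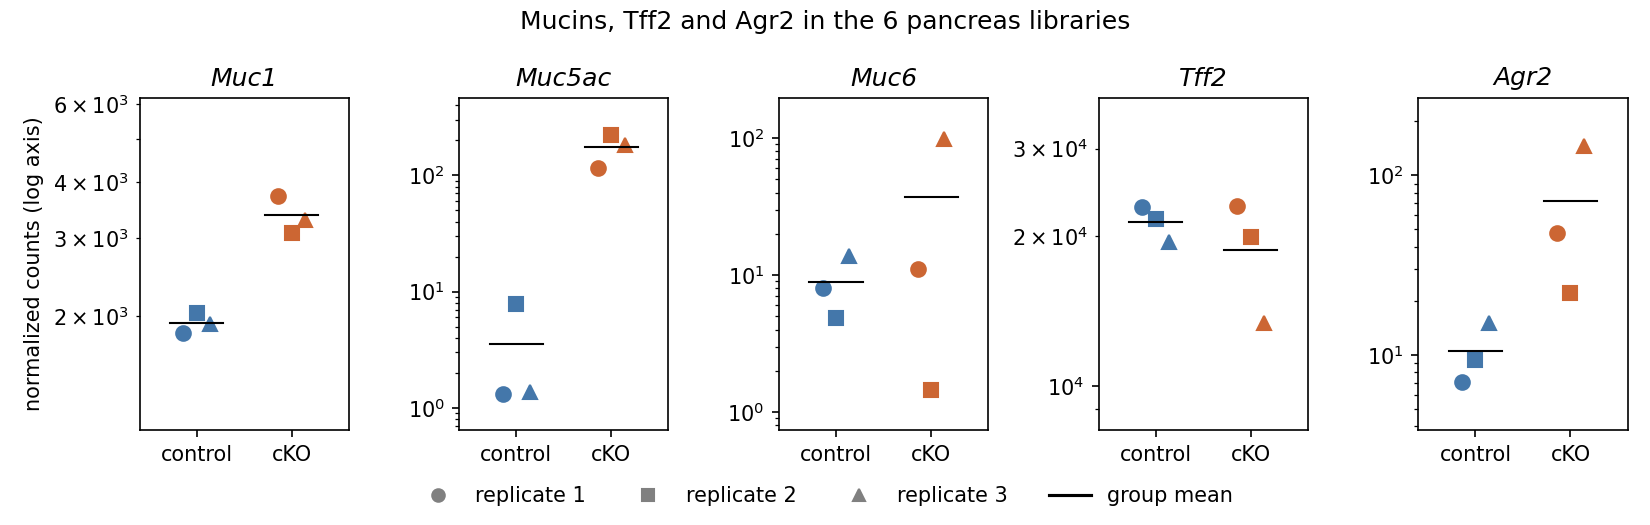
Normalized counts (log axis, a separate range for each gene) of Muc1, Muc5ac, Muc6, Tff2 and Agr2 in the 3 control (blue) and 3 Ptf1a cKO (orange) libraries; marker shapes give the replicate number and lines the group means. Groups are apart for Muc1, Muc5ac and Agr2 and overlap for Muc6, where 1 Ptf1a cKO library lies at 99.2, and for Tff2.

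Muc5ac, the gel-forming mucin of the gastric surface, had the largest change of the 5 genes. It was at 1.33, 7.89 and 1.36 normalized counts in control and at 115, 224 and 183 in Ptf1a cKO. All 3 Ptf1a cKO values lay far above the controls, the lowest of them 14.6 times the highest control value. Mean levels were 3.52 ± 3.78 (SD, n = 3) in control and 174 ± 55.0 (SD, n = 3) in Ptf1a cKO pancreata, a ratio of 49.4. That ratio rests on control replicate 2, without which the control mean is 1.34 normalized counts and the mean of Ptf1a cKO at least 58.1 times a floor of 3 normalized counts. The log2 fold change was 4.76 (SE 0.39, adjusted p = 9.09e-05 from limma), the 16th largest rise of all genes, and 99.8% of genes had a lower one. Because the control values lie near the pseudocount, this size depends on it, and it was 5.69 with a pseudocount of 0.05 and 3.43 with a pseudocount of 1. With single libraries left out, the log2 fold change of Muc5ac stayed between 4.55 and 5.17.

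Muc5ac is also the gene of this group with the most repetitive sequence, which bears on what the reads could measure. Reads were 50 bases long, and alignments that were not unique were counted apart and not assigned to a gene. In the longest GENCODE transcript of Muc5ac (10752 bases), 23.2% of all windows of 50 bases occur more than once in that transcript, against 12.7% for Muc6, 1.28% for Muc1 and 0% for Tff2 and Agr2. Of 9570 genes of the table with a protein-coding transcript, 95.5% hold no repeated window. No window of the 5 transcripts is shared with another gene. The repeat of Muc5ac with the most copies is printed as an example. It lies in the coding sequence, at bases 5746 to 6801 of the transcript. There 1 window of 50 bases, in capitals, recurs every 96 bases and is found in 11 such units without a difference. The unit of 96 bases is the spacing of this exact window and not the shortest repeat, since the later part of the first unit nearly repeats its earlier part. Over the span of these units 92.3% of windows are repeated, and they are 37.4% of all repeated windows of the transcript. The first and the last of these 11 units, which differ at 5 bases outside the capitals, read
Muc5ac first unit: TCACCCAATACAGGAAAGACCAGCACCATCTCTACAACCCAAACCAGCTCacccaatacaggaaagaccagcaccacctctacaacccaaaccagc
Muc5ac last unit: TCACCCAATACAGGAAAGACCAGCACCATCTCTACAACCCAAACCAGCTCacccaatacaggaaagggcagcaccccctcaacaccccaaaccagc
These sequences are from the GRCm38 annotation, and the transcript model of mm9, to which the reads were aligned, was not analysed here.

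Muc1, the membrane mucin, was abundant in control pancreas and rose less than Muc5ac. It had 1835, 2037 and 1923 normalized counts in the control libraries and 3736, 3081 and 3297 in the Ptf1a cKO libraries. The groups did not overlap and the mice of a group lay close together, with a highest value 1.11 times the lowest in control and 1.21 times in Ptf1a cKO. Control averaged 1932 ± 101 and Ptf1a cKO 3371 ± 334 (SD, n = 3 each). The log2 fold change of 0.80 (SE 0.13, adjusted p = 0.00187 from limma) corresponds to 1.74-fold, and 89.1% of all genes had a lower one. Leaving out single libraries moved it between 0.72 and 0.86, and the adjusted p-value stayed under 0.05 in all 6 such fits.

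Agr2, the disulfide isomerase of mucus-making cells, was low in control pancreas and higher but uneven in Ptf1a cKO. Its control values were 7.09, 9.33 and 15.1 normalized counts. Its Ptf1a cKO values were 47.7, 22.1 and 145, of which the lowest was 1.46 times the highest control value. Means were 10.5 ± 4.14 and 71.5 ± 64.7 normalized counts (SD, n = 3 each), and the log2 fold change was 2.09 (SE 0.57, adjusted p = 0.0210 from limma). The call for Agr2 rested on few libraries. It was lost without control replicate 1 (adjusted p = 0.0718) or control replicate 2 (adjusted p = 0.0602), and without Ptf1a cKO replicate 3, which holds the highest value, the log2 fold change was 1.41 (adjusted p = 0.0489). Ptprc was highest in that same library, as was the summed level of 7 leukocyte markers (2385 normalized counts, against 1443 and 1117 in both other Ptf1a cKO libraries and 423 to 715 in control), and the part of these cells in the Agr2 value was not tested.

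The upstream sequences of Muc1 and Agr2, both called higher, are shown with the E-box motif CANNTG in capitals, the motif that the bHLH subunits of the PTF1 complex bind. Both are from RefSeq (GRCm38.p6), each the 250 bases before the annotated start, for Muc1 chr3:89228806-89229055 and for Agr2 chr12:35992675-35992924, both on the plus strand.
Muc1: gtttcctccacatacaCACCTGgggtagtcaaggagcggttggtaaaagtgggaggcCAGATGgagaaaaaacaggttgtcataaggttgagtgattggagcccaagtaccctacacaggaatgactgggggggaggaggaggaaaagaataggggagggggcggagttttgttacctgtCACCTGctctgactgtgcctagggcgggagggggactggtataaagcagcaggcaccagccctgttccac
Agr2: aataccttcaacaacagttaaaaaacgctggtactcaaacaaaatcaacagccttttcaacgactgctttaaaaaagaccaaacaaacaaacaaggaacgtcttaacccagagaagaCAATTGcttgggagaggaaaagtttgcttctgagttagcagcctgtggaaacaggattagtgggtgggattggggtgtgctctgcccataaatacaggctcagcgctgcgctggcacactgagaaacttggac
Muc1 held 3 matches and Agr2 held 1. At least 1 match was found in 66.2% of 32851 upstream sequences of the same length. TGGGAA, searched on both strands as the letters of the RBPJ site, was in neither sequence and in 21.6% of all, and GATAA, also on both strands, was in neither and in 22.6% of all. The upstream sequence of Muc6 held 1 match to CANNTG, 1 to TGGGAA and 2 to GATAA. Muc5ac and Tff2 had no entry. A match of letters is a description and does not show binding.

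Tff2, the trefoil factor of gastric neck cells, was by far the most abundant of the 5 transcripts already in control pancreas. Per kilobase of exon it averaged 36533 ± 2931 normalized counts (SD, n = 3) in control and 32206 ± 8423 (SD, n = 3) in Ptf1a cKO pancreata. By this measure Tff2 was at rank 26 of 9680 genes in every control library and between ranks 21 and 23 in the Ptf1a cKO libraries. Muc1 followed with 823 ± 43.1 per kilobase in control and 1437 ± 142 in Ptf1a cKO, and Agr2 with 8.14 ± 3.20 and 55.4 ± 50.1 (SD, n = 3 each). Muc6 and Muc5ac came last in control, with 0.954 ± 0.487 and 0.328 ± 0.351 per kilobase, which do not differ beyond their spread. In Ptf1a cKO the order below Muc1 was Agr2, Muc5ac (16.2 ± 5.11) and Muc6 (3.98 ± 5.75), but the spread of Agr2 reached across that of Muc5ac.

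The counts of Tff2 overlapped between groups, with 22877, 21635 and 19493 normalized counts in control and 23054, 19954 and 13418 in Ptf1a cKO libraries. The lowest value was in Ptf1a cKO replicate 3, and both other Ptf1a cKO values lay within or just above the control range. The log2 fold change was -0.21 (SE 0.24, adjusted p = 0.514 from limma), and it was 0.01 without Ptf1a cKO replicate 3. The direction of Tff2 rests on the scaling. If every library is rescaled to the same total, the median gene moves up by 1.48 on the log2 scale and Tff2 by 1.28 (adjusted p = 4.47e-06 from limma), that is -0.20 relative to the median gene. With that scaling 9587 genes were called higher and 129 lower, in place of 1751 and 1724.

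Muc6, the gel-forming mucin that is stored with Tff2 in the stomach, was low in 5 of 6 libraries. It was at 8.10, 4.84 and 13.8 normalized counts in control and at 11, 1.46 and 99.2 in Ptf1a cKO. The groups overlapped, and Ptf1a cKO contained both the lowest and the highest value, the latter at least 33.1 times the floor of 3 normalized counts. The log2 fold change of 0.71 (SE 0.99) did not pass (adjusted p = 0.604 from limma), and without Ptf1a cKO replicate 3 it was -0.49 (adjusted p = 0.649). That library also held the highest values of Ptprc and Agr2 and, among epithelial genes, of the microvillus gene Vil1. Vil1 had 56.0 normalized counts there, against 25.6 and 8.90 in both other Ptf1a cKO libraries and 7.05 to 10.4 in control. Vil1 was not alone in this, since Fut2, Gpx2, Chia and Spp1 were also highest there, while Gkn3, Pga5, Gif, Gcnt3 and Krt19 were not. These genes were picked after their values were seen, and their part in the Muc6 value was not tested. Muc6 and Muc5ac lie on chromosome 7 with only Muc2 between them in RefSeq, and Muc2 is not in the table. Within a library, Muc5ac was higher against its neighbour in Ptf1a cKO, from a mean log2 ratio of -0.89 ± 1.20 in control to 3.15 ± 2.34 in Ptf1a cKO (SD, n = 3 each), with groups apart (two-sided p = 0.10 by exact permutation, which is the lowest 3 against 3 can give). The size of this shift depends on the pseudocount. It was 4.04 here, 5.08 with a pseudocount of 0.05 and 2.79 with a pseudocount of 1.

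**Figure D2:**
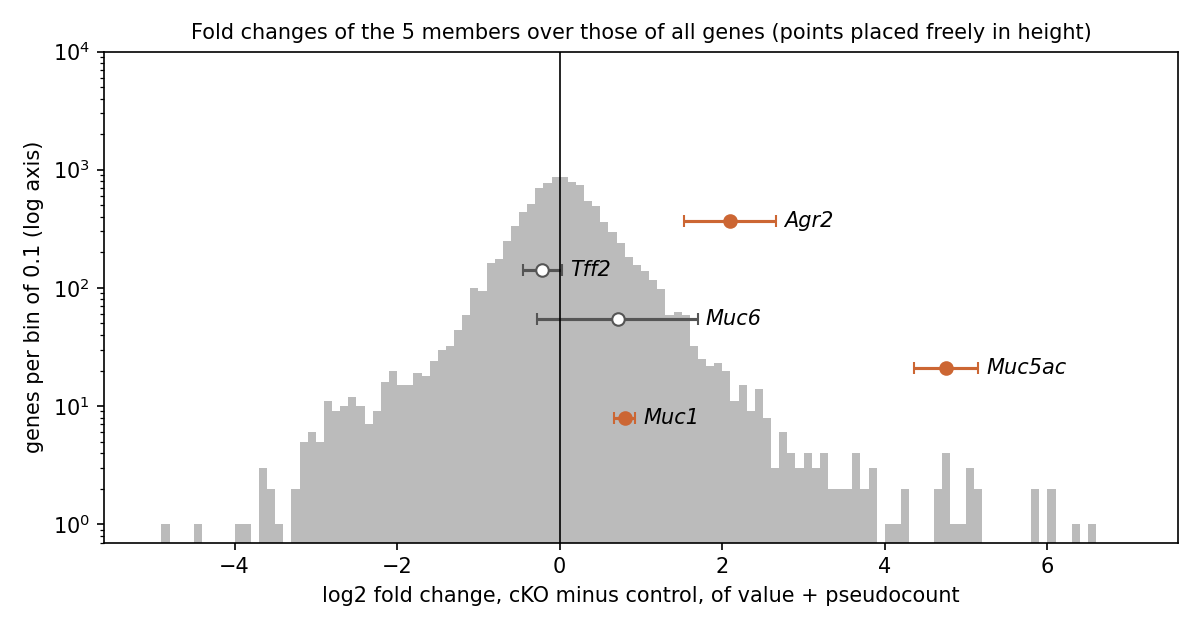
Distribution of the log2 fold change, Ptf1a cKO minus control, over all 10245 genes (grey, number of genes on a log axis) with the 5 members drawn over it at arbitrary heights as points with standard errors; filled points passed an adjusted p-value of 0.05. Muc5ac at 4.76 and Agr2 at 2.09 lie in the upper tail, Muc1 at 0.80 and Muc6 at 0.71 on the upper flank, and Tff2 at -0.21 near the centre.

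A ratio within a library depends on the scaling between libraries only through the pseudocount, so the 5 genes were also set against the mean log2 level of 15 pancreatic duct markers. Of these 15 markers 9 were themselves called higher in Ptf1a cKO, as were 17.1% of all genes. Muc5ac moved up by 3.60 on the log2 scale against the duct markers, from -4.31 ± 0.70 to -0.71 ± 0.47 (SD, n = 3 each), with groups apart. The size of this change was 4.47 with a pseudocount of 0.05 and 2.39 with a pseudocount of 1. Tff2 moved down by 1.37, from 7.41 ± 0.07 to 6.04 ± 0.58 (SD, n = 3 each), also with groups apart. Tff2 itself changed by only -0.21 (adjusted p = 0.514 from limma), so most of this shift is the rise of the duct markers. The exact permutation test gave a two-sided p = 0.10 for both the Muc5ac and the Tff2 ratio, the smallest possible. Muc1 (-0.36), Muc6 (-0.45) and Agr2 (0.94) overlapped between groups in this ratio, with two-sided p = 0.20, 0.80 and 0.30 from the exact permutation test. The 5 ratios belong to a family of 15 that includes the 10 pairs of members, and none can reach 0.05. The duct keratin Krt19 had 241 ± 34.3 and 243 ± 60.8 normalized counts in control and Ptf1a cKO pancreata (SD, n = 3 each, adjusted p = 0.966 from limma), while the epithelial adhesion gene Epcam rose by 1.37 on the log2 scale (adjusted p = 9.18e-05 from limma).

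**Figure D3:**
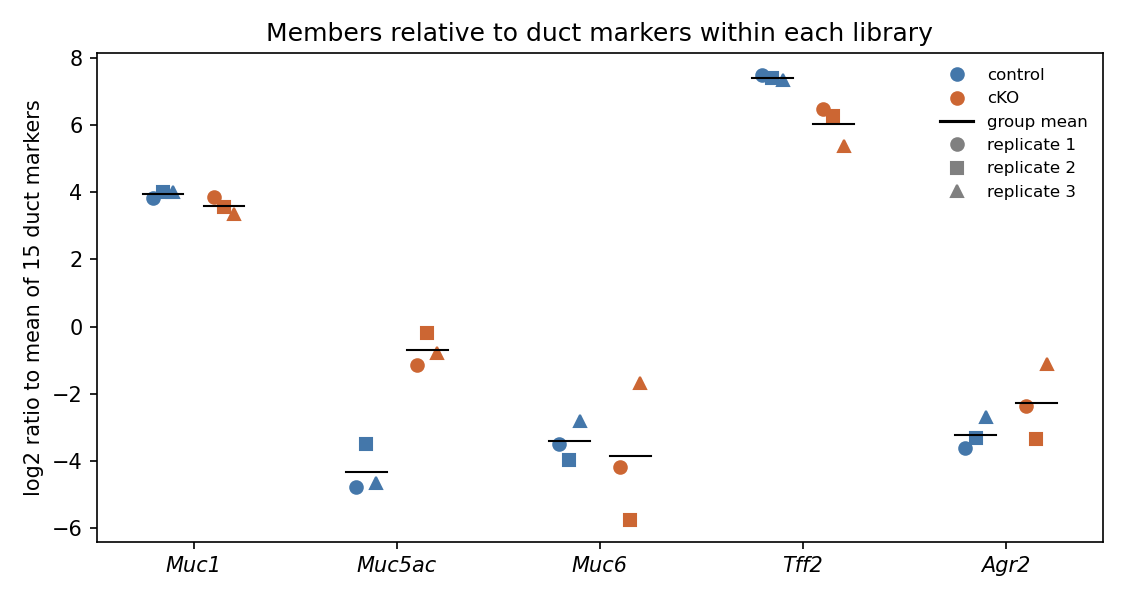
Log2 ratio of each member to the mean of 15 duct markers in the same library, for 3 control (blue) and 3 Ptf1a cKO (orange) libraries, with marker shapes for replicate numbers and lines for group means. In this ratio Muc5ac lies higher and Tff2 lower in all 3 Ptf1a cKO libraries, and the groups overlap for Muc1, Muc6 and Agr2.

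Enzymes that build the sugar chains of mucins changed in both directions. Of 31 listed genes 15 are in the table, and of these 6 were higher, 4 lower and 5 not called, with a median log2 fold change of 0.47 against 0.036 over all genes, of which 17.1% were called higher and 16.8% lower. Under the same total 12 were higher and 2 lower, while 9587 of all 10245 genes were called higher and 129 lower. The enzymes that add the branch of core 2 chains went opposite ways. Gcnt3, the mucin-type branching enzyme, had 5.90, 9.22 and 8.15 normalized counts in control and 901, 408 and 754 in Ptf1a cKO libraries. The change was 5.89 (SE 0.27, adjusted p = 8.68e-06 from limma). Gcnt1, its relative, averaged 706 ± 73.1 in control and 79.3 ± 1.75 in Ptf1a cKO (SD, n = 3 each). It was lower, with a log2 change of -3.10 (adjusted p = 5.20e-06 from limma). The log2 ratio of Gcnt3 to Gcnt1 thereby moved from -5.99 ± 0.18 to 2.99 ± 0.58 (SD, n = 3 each), with groups apart.

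Fut2, which caps mucin chains with fucose, was at or under 2.28 normalized counts in each control library and at 58.2, 23.9 and 130.1 in Ptf1a cKO libraries. Against a floor of 3 normalized counts its mean was at least 23.6-fold higher (adjusted p = 0.00203 from limma). Galnt6, one of the enzymes that attach the first sugar, was lower, at 1066 ± 144 in control and 151 ± 92.2 in Ptf1a cKO (SD, n = 3 each), on the log2 scale -2.94 (adjusted p = 3.66e-04 from limma). A4gnt, which makes the terminal sugar typical of Muc6, and the core 3 enzyme B3gnt6 are not in the table. Of the other listed mucin genes, 2 of 12 are in the table, Emcn and Cd164, and neither passed the threshold (median log2 fold change 0.18). Both were called higher under the same total, as were 9587 of all 10245 genes.

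Relatives of Agr2 in the endoplasmic reticulum changed in both directions. Of 24 listed genes for protein disulfide isomerases and their oxidases 20 are in the table, and 3 were higher, 6 lower and 11 not called. Their median log2 fold change was -0.07 against 0.036 over all genes, of which 17.1% were called higher and 16.8% lower. The balance of this list rests on the scaling, since 16 were higher and 1 lower under the same total. With that scaling 9587 of all 10245 genes were called higher and 129 lower. Txndc12, the closest relative of Agr2 in the table, had 111, 93.3 and 88.9 normalized counts in control and 193, 217 and 207 in Ptf1a cKO libraries. Its groups were apart, and the log2 difference was 1.05 (adjusted p = 4.61e-04 from limma). Pdia4 was higher by 0.63 (adjusted p = 0.00726 from limma). The largest falls were those of Erp27, from 5608 ± 741 to 964 ± 598 normalized counts (-2.70), and of P4hb, the classical disulfide isomerase, from 16463 ± 430 to 6638 ± 1319 (-1.33; SD, n = 3 each). Once all libraries were set to 1 common total P4hb turned to 0.17, which is -1.31 relative to the median gene.

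**Figure D4:**
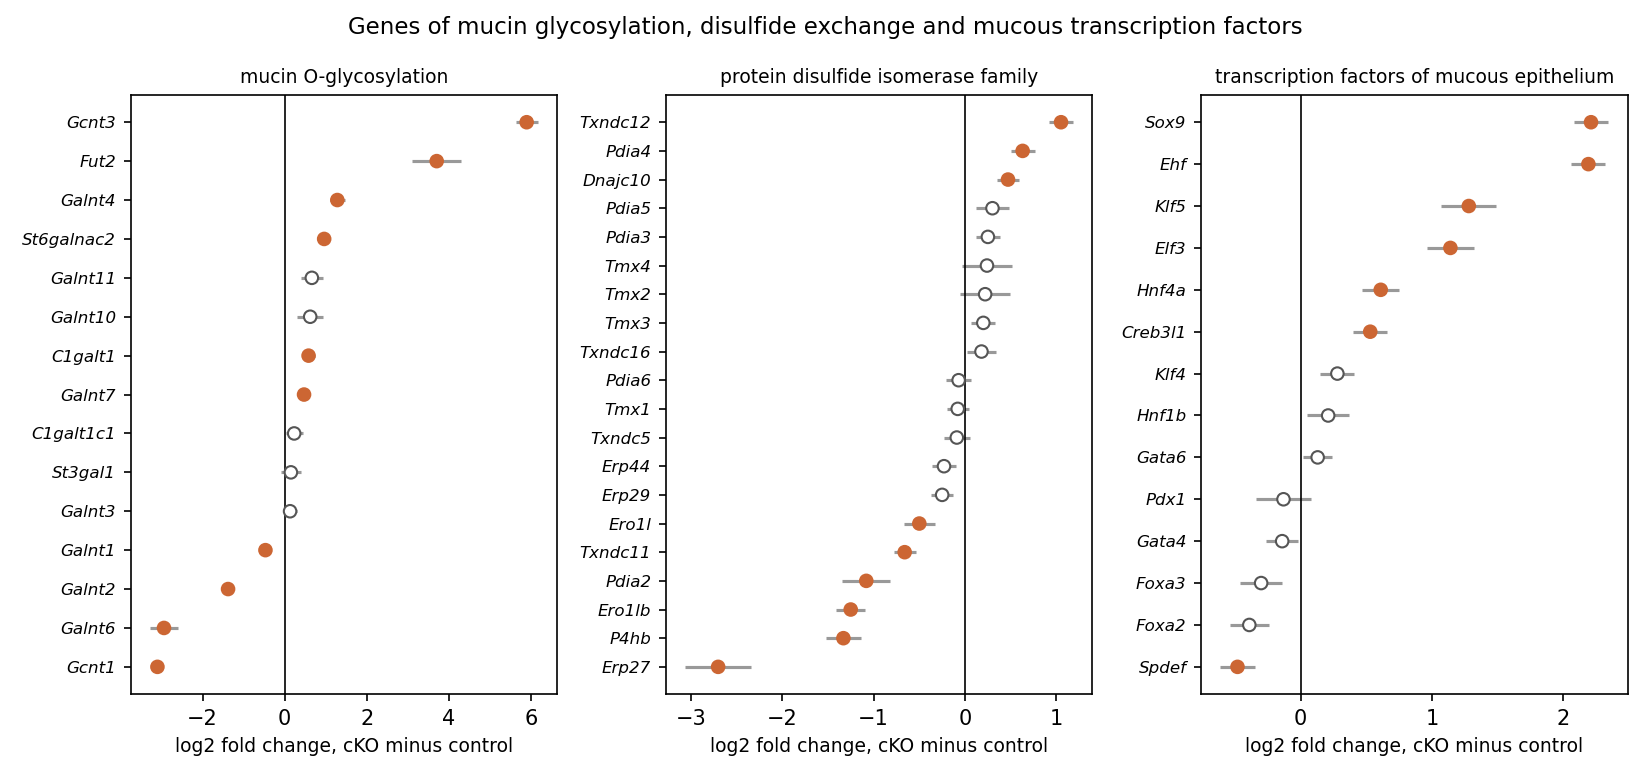
Log2 fold change, Ptf1a cKO minus control, with standard errors for the listed genes of mucin glycosylation (15), the disulfide isomerase family (20) and transcription factors of mucous epithelium (14); filled points passed an adjusted p-value of 0.05. The 2 branching enzymes Gcnt3 and Gcnt1 stand at opposite ends of the first panel.

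Transcription factors known from gastric and mucus-making epithelia included 6 that rose. Of 18 listed 14 are in the table, with 6 higher, 1 lower and 7 not called, and a median log2 fold change of 0.25. Over all genes the median was 0.036, with 17.1% called higher and 16.8% lower. All 14 were higher under the same total, as were 9587 of all 10245 genes. Sox9 (2.21, adjusted p = 2.0e-05 from limma) and the ETS factor Ehf (2.19, adjusted p = 1.86e-05 from limma) changed most. Spdef, the factor known for driving goblet and mucous cell maturation, was the 1 lower gene. It had 275, 282 and 330.1 normalized counts in control and 194, 199 and 239 in Ptf1a cKO libraries, which differ by -0.48 on the log2 scale (adjusted p = 0.0193 from limma). The call for Spdef was lost without control replicate 3 (adjusted p = 0.0512) or Ptf1a cKO replicate 1 (adjusted p = 0.0667, both from limma). It was also lost when totals without acinar secreted proteins set the scale (adjusted p = 0.0694 from limma), and under the same total Spdef turned to 0.99, which is -0.49 relative to the median gene.

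Markers of the gastric and intestinal cells in which these 5 genes are best known were present in part. Their counts stand beside 17.1% of all genes called higher and 16.8% called lower. For surface mucous cells Muc5ac is the only 1 of 4 markers in the table, and Gkn1, Gkn2 and Tff1 are not. For neck mucous cells and spasmolytic polypeptide-expressing metaplasia (SPEM) 6 of 10 are in the table, of which 3 were higher and 0 lower. Among these Gkn3, a gastrokine, rose by 6.06 on the log2 scale (adjusted p = 1.47e-05 from limma) and Gpx2, a glutathione peroxidase of gut epithelium, by 3.33 (adjusted p = 0.00138 from limma). Gpx2 had 2.28, 0.0576 and 4.05 normalized counts in control, near the pseudocount. Its change was 4.53 with a pseudocount of 0.05 and 2.03 with a pseudocount of 1. The 3 markers not called were Tff2 (-0.21, adjusted p = 0.514), Muc6 (0.71, adjusted p = 0.604) and Dmbt1 (0.75, adjusted p = 0.151, all from limma). Tff2 and Muc6 belong to the 5 genes followed here. All 4 chief cell markers in the table were higher, with Pga5 (6.51) and Chia (6.37) first. Of 5 parietal cell markers the proton pump genes Atp4a and Atp4b are not in the table and 1, Kcnq1, is. Kcnq1 was higher (1.56, adjusted p = 6.84e-04 from limma). Of 11 enterocyte markers 1 is in the table, Vil1, and it did not pass (adjusted p = 0.136 from limma). Of 8 goblet cell markers 2 are in the table, without Muc2, and Zg16, which acinar cells also make, was lower (-2.25, adjusted p = 0.00661 from limma). Of 7 tuft cell markers 1 is in the table and was not called.

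Markers of other cells of the pancreas moved with the groups as well. For comparison, 17.1% of all genes were called higher and 16.8% lower. Of 17 duct markers 15 are in the table, with 9 higher, 0 lower and a median log2 fold change of 0.47, and Spp1 (osteopontin) rose most, by 5.14. Its 3 Ptf1a cKO values of 87512, 20971 and 105340 make up most of the summed level of the duct markers in those libraries. Of 10 leukocyte markers 7 are in the table and 5 were higher (median 1.29), with the macrophage genes Lyz2 (1.44) and Emr1 (1.36) first. Of 8 fibroblast markers, all in the table, 7 were higher (median 1.24), led by the collagen genes Col1a1 (1.96) and Col1a2 (1.66). Acinar markers had a median of -2.37, and the largest falls were those of Ptf1a (-4.41, SE 0.49, adjusted p = 3.29e-04 from limma) and the elastase gene Cela2a (-3.11). The part of these cells in the levels of the 5 mucus genes was not tested.

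Genes whose log2 values followed each member most closely over the 6 libraries were found by Pearson correlation, which here mostly reflects the difference between groups. For Muc5ac these were Tox (r = 0.998), Fhod1 (0.998) and Tox4 (0.996), for Muc1 they were Ociad1 (0.998), Krt23 (0.997) and Tmem63a (0.996), and for Agr2 they were Csk (0.996), Pam (0.995) and Psmd14 (0.994). Tox rose from 17.6, 27.6 and 15.4 normalized counts in control to 159, 213 and 186 in Ptf1a cKO libraries, and like Muc5ac it was highest in replicate 2 of either group. Pam had 259, 277 and 367 in control and 768, 515 and 1386 in Ptf1a cKO libraries, with the highest value in replicate 3 as for Agr2. Tox and Pam were picked by correlation over these same 6 libraries, so a shared order of replicates is part of the choice.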

How the data were processed

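Whole-pancreas RNA of 3 control and 3 Ptf1a cKO mice was sequenced as single-end reads of 50 bases. The submitters' processing notes name TopHat2 2.0.4, Bowtie, SAMtools 0.1.18.0, HTSeq 0.6.0 and mm9, and the paper's methods name edgeR with TMM normalization. The authors deposited 1 table of normalized read counts per gene symbol, a signal with decimals from which whole reads were not recovered, so tests for read counts were not used. The read totals in the paper's methods are not used here, and the reads behind a value are not known from the table. The number of mice limits the precision. A further 3 entries, for alignments without a gene, ambiguous or not unique, made up 75.7% to 82.6% of a library and were left out.

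All values were divided by 13.6, the mean library total over genes in units of 1e6, and log2(value + 0.25) was fitted by limma 3.58.1 (R 4.3.3; lmFit, eBayes with trend, no covariate, Benjamini-Hochberg). The filter on a mean of 0.25 took out 0 genes. Single values and ratios were tested by exact permutation (SciPy 1.17.1). The fit was tested on simulated data. Exon lengths, repeated windows and neighbours come from GENCODE M21 and RefSeq, both GRCm38, by symbol. Alternatives were other pseudocounts, filters, scalings and limma settings, a replicate block, a term for sex and each library left out.

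Members and lists were chosen with earlier results of these data known. Named are all members in the table, of each list the 2 largest rises and 2 largest falls past the threshold and any gene that no control library has above 3 normalized counts, the 3 genes most correlated with each called member, and Ptf1a. Ptprc, Vil1, Krt19, Epcam and genes named as not in the table were added after their values were seen, as were Emcn, Cd164, Gif and Dmbt1.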

Additional observations from a re-analysis of the deposited data

How the results depend on the processing

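Muc1 and Muc5ac kept their direction and their call in every alternative, with log2 fold changes between 0.72 and 2.29 and between 3.43 and 5.78. Agr2 kept its direction, from 1.41 to 2.68 with single libraries left out, and lost its call without control replicate 1 or 2. Muc6 ran from -0.49 to 1.71 and Tff2 from -0.38 to 0.01 with single libraries left out. A filter on a mean of at least 5, applied to the values after division by 13.6, removed Agr2 and Muc6, so they have no value there. Rescaling every library to the same total moves the median gene by 1.48 and with it most results. Muc6 then passed (1.78), Tff2 turned to 1.28, P4hb to 0.17 and Spdef to 0.99, 9716 genes were called (9587 higher and 129 lower), all 5 members were higher, and 45 genes of the 5 companion lists were higher and 3 lower, in place of 16 and 11. The ratio of Muc5ac to the duct markers changed by 4.47 with a pseudocount of 0.05 and by 2.39 with a pseudocount of 1.

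The labels do not pair mice with the same replicate number, and only those of replicate 3 have the same sex. Their deviations from the group means correlated at 0.0391, 0.134 and 0.144 over 10245 genes. The values of replicates 2 and 3 were above those of all unlike numbers, but Ptf1a cKO replicate 1 correlated better with control replicate 2 (0.0829) than with its own number. With the replicate block 3525 genes were called in place of 3475, with 3 members higher and 0 lower as without it. The block gave Agr2 an adjusted p of 0.00619 (limma). No counting error could be given for the control values of Muc5ac, Muc6 and Agr2, which lie at few normalized counts, and the Ptf1a cKO values of Muc6 and Agr2 varied among mice with a coefficient of variation of 145% and 90.5%.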

Other observations

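Control replicate 2 had the highest Muc5ac value of the controls (7.89 normalized counts against 1.33 and 1.36). It also had the highest control values of Gkn3 (1939 against 1255 and 1017), Pga5 (2385 against 1472 and 1392), Gif (671 against 431 and 404), Chia (1069 against 660.3 and 507) and Gcnt3 (9.22 against 5.90 and 8.15), genes that rose in Ptf1a cKO and were picked here after their values were seen. Others that rose did not share this order, since Gpx2 was lowest in control replicate 2 (0.0576 against 2.28 and 4.05), Fut2 was highest in control replicate 1 and Agr2 in control replicate 3. Of 132 genes called higher by a log2 fold change of at least 2, 44 were highest in control replicate 2, 42 in control replicate 1 and 46 in control replicate 3. The control mean was 2.02% of the Ptf1a cKO mean for Muc5ac (0.771% without control replicate 2), 1.48% for Gkn3, 1.44% for Gif, 1.13% for Gcnt3, 1.04% for Chia and 0.938% for Pga5, and it was 14.7% for Agr2. What these control values stem from was not tested.

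The 3 Ptf1a cKO libraries ranked differently by Muc5ac and by the other low members. Ptf1a cKO replicate 2 kept the most Ptf1a (70.1 normalized counts against 19.8 and 10.2) and had the highest Muc5ac (224), but the lowest Agr2 (22.1) and the lowest Muc6 (1.46). Ptf1a cKO replicate 3 had the least Ptf1a and the highest Agr2 (145) and Muc6 (99.2). With 3 libraries these orders are given as values and were not tested.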
